A study of Mus musculus with 27 samples.

Results

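The genes described here are 10 that govern how a fibroblast passes through G1, the phase of the cell cycle before DNA synthesis. They are the D-type cyclins Ccnd1, Ccnd2 and Ccnd3, the E-type cyclins Ccne1 and Ccne2, the cyclin-dependent kinases Cdk2, Cdk4 and Cdk6, the phosphatase Cdc25a and the transcription factor Myc. They were chosen by symbol, each symbol matched 1 Ensembl ID of the deposited count table, and they are 10 of its 48440 genes. All 10 passed the filter on low counts and are among the 18684 genes tested.

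RNA was sequenced from lung fibroblasts taken as primary cells from wild-type C57BL/6 mice and kept at 3% O2 in medium with 15% serum, with 3 libraries in each of 9 groups. Of these groups, 4 received 3 uM KU60019, which blocks ATM, a kinase that senses DNA breaks, or its vehicle DMSO for 15 d or 35 d until harvest (KU60019 15 d, DMSO 15 d, KU60019 35 d and DMSO 35 d). In 4 other groups the compound or the DMSO was withdrawn after 15 d or 35 d, and the cells were harvested 20 d later (named here with "then removed"). The cells of IR 10 d were exposed to X-rays at 10 Gy, 10 d before harvest. In the design text the irradiated cells are the positive control for senescence, a lasting exit from the cell cycle. Their time in culture is not stated, and they were set against DMSO 15 d. Each group has 1 library of each of 3 numbers in the titles. Values of a group follow the ascending order of these numbers, which also gives the first, the second and the third library their names. Whether these numbers stand for animals or for cultures of 1 pool is not stated, so p-values measure the spread between these libraries, which may be technical.

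Growth factors raise the D-type cyclins, which bind Cdk4 or Cdk6 and begin to phosphorylate the retinoblastoma protein. That releases E2F transcription factors, whose targets include Ccne1, Ccne2 and Cdc25a. The E-type cyclins then activate Cdk2, from which Cdc25a removes inhibitory phosphates, and the cell enters S phase. Myc, an early target of growth factor signalling, drives genes of growth, with Ccnd2 and Cdk4 among them. After DNA damage, ATM and its partner kinases lead to destruction of the Cdc25a protein and, through p53, to the inhibitor p21 (gene Cdkn1a). Much of this control acts on proteins, which were not measured here.

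Levels are CPM, counts scaled to library size, after TMM scaling, means carry the SD over 3 libraries, and log2 fold changes carry a standard error. In bulk RNA, fewer cells that express a gene and less of its RNA per cell cannot be told apart. A gene was called at an adjusted p under 0.05 in edgeR's quasi-likelihood test. Genes are said to rise or fall only where they were called. Depth ran from 20659745 to 50859493 counts a library with a median of 31265114. On the first principal component (42.8% of the variance) the second library of KU60019 15 d then removed was at 0.46. The DMSO 35 d then removed libraries alone lay above it, at 1.16, 0.80 and 0.60. Their summed level over 10 mitosis genes was 1277 to 1656 CPM, against 27.2 to 220 CPM in the other 8 groups. They also differed among themselves in ribosomal RNA, which took 2.91%, 0.431% and 0.0510% of the counts. The rank correlation over genes between exon length and a library's departure from the mean level, which can vary with RNA quality, also varied between libraries and groups. It was -0.12 to -0.04 in KU60019 15 d and -0.15 to 0.45 in DMSO 15 d, -0.21 to 0.10 in KU60019 35 d and 0.07 to 0.43 in DMSO 35 d, -0.33 to -0.23 in KU60019 35 d then removed and -0.21 to -0.14 in DMSO 35 d then removed, and -0.13 to 0.06 in IR 10 d. Markers of fibroblasts summed to between 9424 and 51459 CPM in every library, with none of the 10 markers at 0 in any group, and the sums differed between groups as given beside each comparison. Atm, the gene of the drug target, was lower in 4 of the 5 treated groups, with log2 fold changes of -1.32 after 15 d of KU60019, -2.21 and -1.14 after removal at 15 d and 35 d, and -1.59 after irradiation. After 35 d of KU60019 its log2 fold change of -0.80 was not called (adjusted p = 0.191). KU60019 blocks the enzyme, so the Atm mRNA does not check the labels.

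On GRCm38 (mm10) with the GENCODE M21 annotation all 10 are protein-coding genes. Of the D-type cyclins, Ccnd1 lies on the minus strand at chr7:144929931-144939925, Ccnd2 on the minus strand at chr6:127125162-127152193 and Ccnd3 on the plus strand at chr17:47505051-47599691. Ccne1 lies on the minus strand at chr7:38097984-38107534 and Ccne2 on the plus strand at chr4:11191351-11204779. The kinases Cdk4 (plus strand, chr10:127063534-127067920) and Cdk2 (minus strand, chr10:128697939-128705031) share a chromosome, and Cdk6 is on the plus strand at chr5:3341485-3531008. Cdc25a (chr9:109875579-109893895) and Myc (chr15:61985391-61990374) are on the plus strand. Whether reads were counted by strand is not stated, and exons of 7 of the 10 overlap genes of the opposite strand. The overlap takes 23.4% of the exon bases of Ccnd1, 19.7% of Cdk4 (with Tspan31), 17.4% of Ccne2 (with Ints8), 4.11% of Ccnd3 and at most 3.95% for any 1 neighbour of Ccnd2, Cdk6 and Cdk2. How many counted reads came from the neighbours was not measured, so values of Ccnd1, Cdk4 and Ccne2 above all are uncertain.

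Promoters of 300 bases, from 250 before to 50 after a start site, were found for 6 of the 10 genes in RefSeq (GRCm38.p6). They were searched on both strands for E2F words (TTTCCCGC, TTTCGCGC, TTTGCCGC or TTTGGCGC), the E-box CACGTG bound by Myc family proteins, the GC box GGGCGG, AP-1 words (TGACTCA or TGAGTCA) and the CHR word TTTGAA. The 4 printed are those found among the 5 genes called in the 35 d removal comparison, 5′ to 3′ on the gene's strand. Capitals mark the GC boxes of Ccne1, the E2F word of Cdc25a and of Cdk2, and the E-boxes of Cdk4. The regions are chr7:38107441-38107740 (minus) for Ccne1, chr9:109875329-109875628 (plus) for Cdc25a, chr10:127063285-127063584 (plus) for Cdk4 and chr10:128705002-128705301 (minus) for Cdk2.
Ccne1: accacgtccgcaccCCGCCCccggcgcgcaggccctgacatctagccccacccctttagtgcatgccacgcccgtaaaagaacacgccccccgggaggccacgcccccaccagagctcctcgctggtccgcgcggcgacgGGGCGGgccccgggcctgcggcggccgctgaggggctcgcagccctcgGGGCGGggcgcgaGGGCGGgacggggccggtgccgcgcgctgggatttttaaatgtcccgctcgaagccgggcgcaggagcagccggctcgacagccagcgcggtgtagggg
Cdc25a: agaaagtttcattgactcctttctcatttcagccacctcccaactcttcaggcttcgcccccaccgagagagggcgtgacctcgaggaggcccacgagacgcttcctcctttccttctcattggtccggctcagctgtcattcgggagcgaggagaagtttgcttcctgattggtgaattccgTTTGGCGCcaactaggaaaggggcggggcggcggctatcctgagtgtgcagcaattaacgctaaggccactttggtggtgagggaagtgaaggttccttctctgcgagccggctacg
Cdk4: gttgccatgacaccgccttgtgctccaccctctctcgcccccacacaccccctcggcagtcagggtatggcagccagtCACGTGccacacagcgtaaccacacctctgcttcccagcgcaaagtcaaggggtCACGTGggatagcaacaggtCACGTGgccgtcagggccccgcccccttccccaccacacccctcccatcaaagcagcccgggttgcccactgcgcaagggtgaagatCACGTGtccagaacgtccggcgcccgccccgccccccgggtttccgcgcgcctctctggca
Cdk2: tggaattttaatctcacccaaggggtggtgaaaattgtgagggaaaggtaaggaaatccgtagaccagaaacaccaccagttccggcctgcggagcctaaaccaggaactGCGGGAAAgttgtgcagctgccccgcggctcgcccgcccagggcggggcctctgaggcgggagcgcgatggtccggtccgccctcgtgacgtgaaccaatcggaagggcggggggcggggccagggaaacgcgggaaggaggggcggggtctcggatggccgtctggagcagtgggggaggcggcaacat

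An E2F word was found in 2 of the 6 genes, starting 67 bases before the start site of Cdc25a and 140 before that of Cdk2. Such a word was in 2.26% of the 32851 promoters of the table. The Cdk4 promoter held 4 E-boxes, at -172, -118, -98 and -11, and that of Cdk6 held 1, at -220, while 7.15% of all promoters held at least 1. GC boxes, of which 35.7% of all promoters held at least 1, numbered 4 in Ccne1, 6 in Cdk2, 3 in Cdk4, 2 in Cdc25a, 2 in each of the 2 Ccnd3 promoters of the table and 0 in Cdk6. The promoters of the 6 genes were 56.7% to 76.0% G and C, against a median of 52.7% over all promoters. The part of this base composition in the matches was not tested. AP-1 and CHR words, found in 5.20% and 17.9% of all promoters, were in none of the 6. A match is a string of letters and no record of binding.

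**Figure D1:**
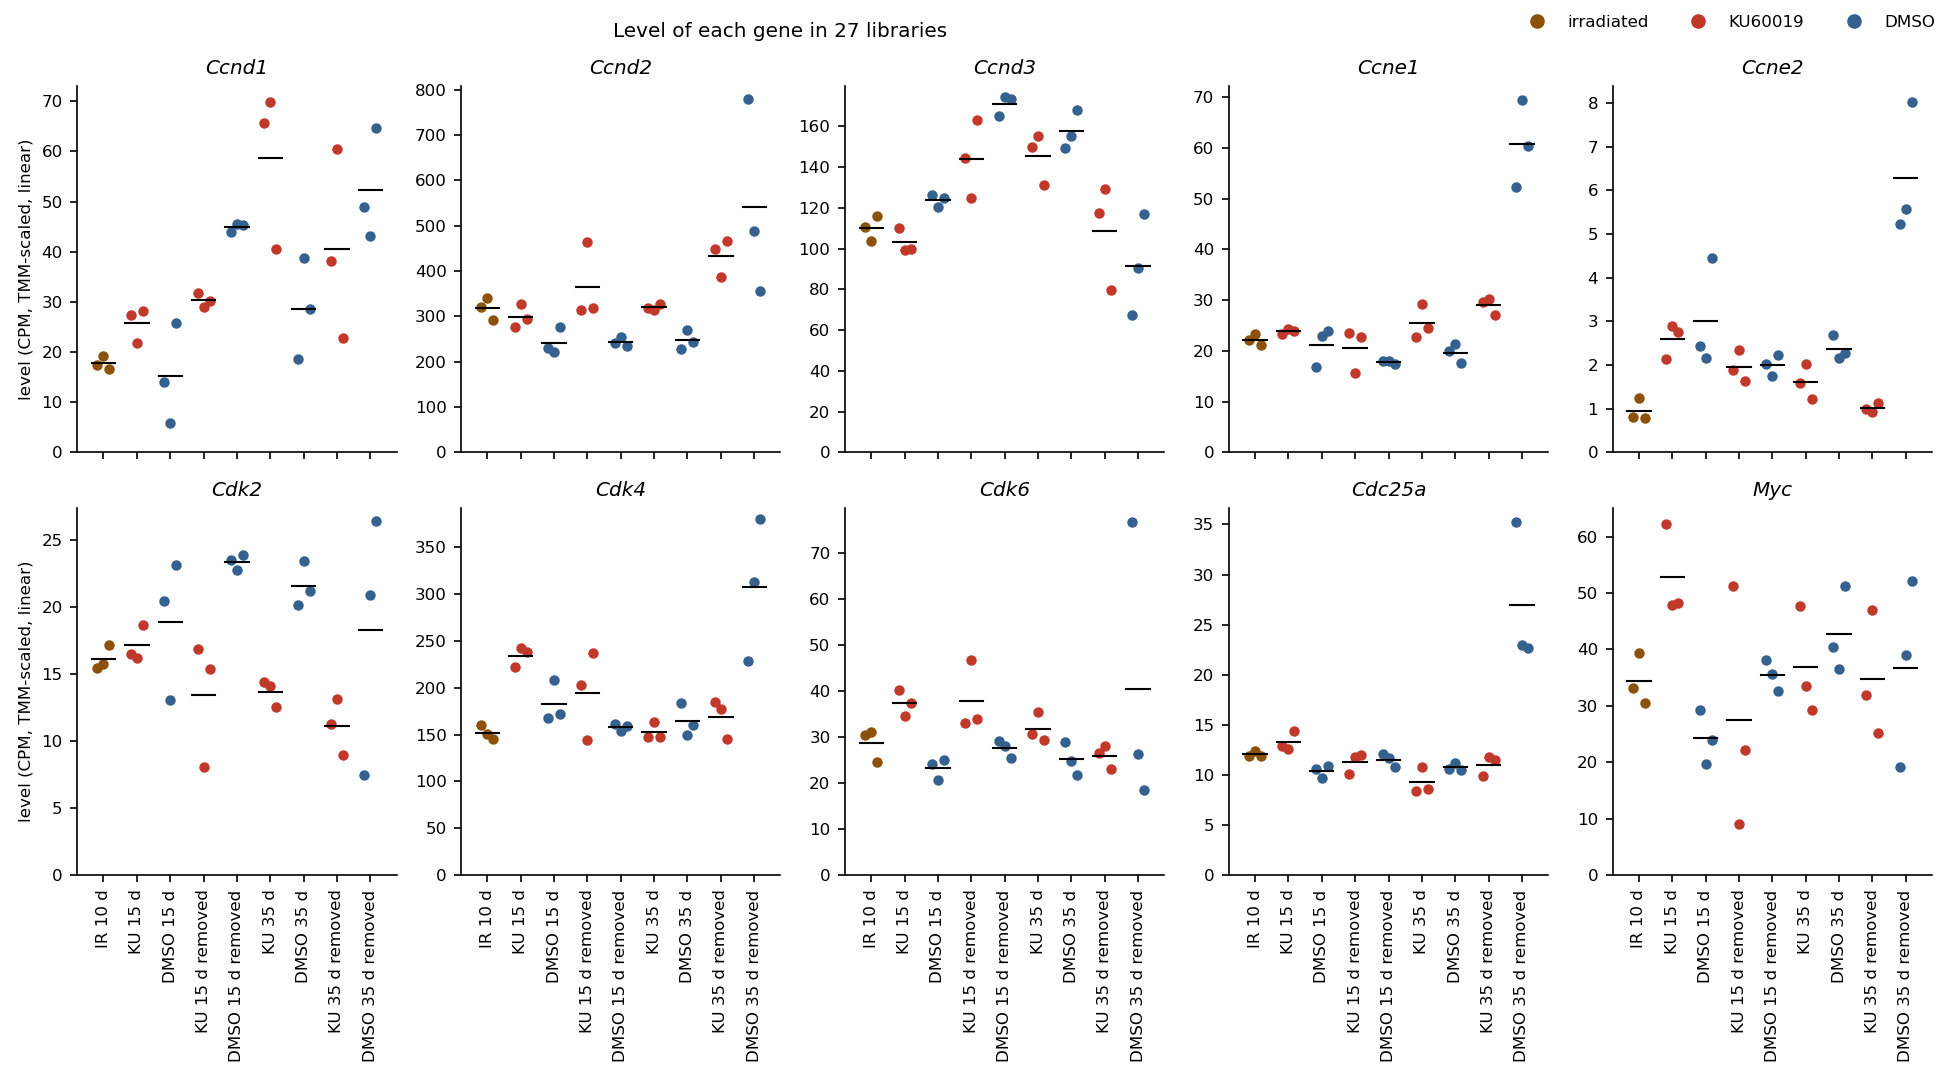
Level of each gene in 27 libraries, in CPM after TMM scaling on a linear axis from 0. Points are libraries, black lines are group means, and colours separate irradiated, KU60019 and DMSO groups. Ccne1, Ccne2 and Cdc25a in DMSO 35 d then removed lie above all other libraries, and Myc in KU60019 15 d lies above DMSO 15 d.

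Ccnd2 was the main D-type cyclin in most groups. Per transcript length, in the deposited TPM (scaled for transcript length and depth), the median level over the 27 libraries was 81.04 for Ccnd2, 51.7 for Ccnd3 and 13.2 for Ccnd1. The share of Ccnd2 in the summed TPM of the D-type cyclins was 60.1% ± 2.79 in IR 10 d (SD, n = 3). It was 58.4% ± 3.54 in KU60019 15 d and 51.4% ± 1.41 in DMSO 15 d, and 48.8% ± 4.19 in KU60019 35 d and 44.6% ± 1.57 in DMSO 35 d. After removal it was 55.5% ± 8.02 and 40.7% ± 1.06 in the KU60019 and DMSO groups of 15 d, and 64.0% ± 9.10 and 67.7% ± 13.01 in those of 35 d. In TPM the mean share of Ccnd3 was above that of Ccnd2 in DMSO 15 d then removed (46.7%) and DMSO 35 d (46.8%). By counts per kilobase of exon length this turned round, with Ccnd2 at 47.2% and Ccnd3 at 35.4% in DMSO 15 d then removed and Ccnd2 at 52.2% and Ccnd3 at 35.9% in DMSO 35 d, and Ccnd2 had the highest mean share in each of the 9 groups. Ccnd1 took between 5.27% and 14.96% by group, with its highest share in KU60019 35 d (14.96% ± 3.26, against 8.63% ± 2.45 in DMSO 35 d). Depth of each TPM value is not kept by that unit.

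**Figure D2:**
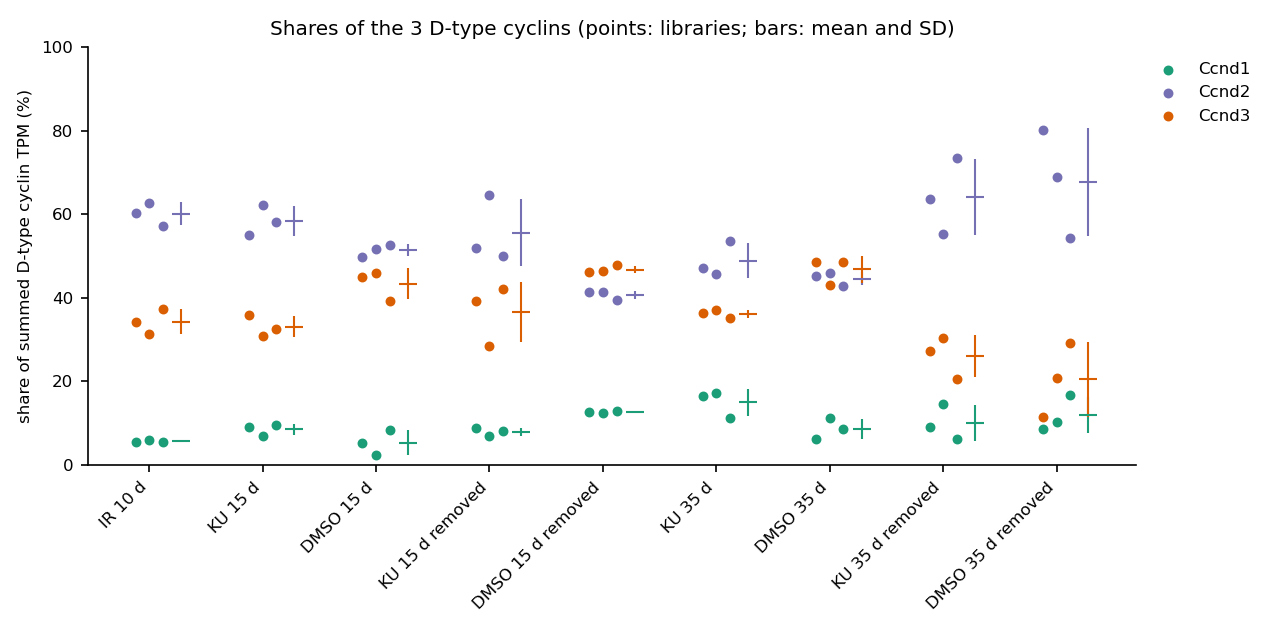
Share of each D-type cyclin in their summed TPM, in percent, by group, with 3 libraries as points and the mean and SD beside them. Ccnd2 averages 67.7% in DMSO 35 d then removed and 40.7% in DMSO 15 d then removed, and Ccnd1 reaches at most 17.2% in a library.

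Across the groups Ccnd1 ranged 3.85-fold between its highest and lowest group mean. It averaged 17.8 ± 1.29 CPM in IR 10 d, and 25.7 ± 3.51 CPM in KU60019 15 d against 15.2 ± 9.97 CPM in DMSO 15 d. It averaged 58.7 ± 15.8 CPM in KU60019 35 d and 28.6 ± 10.1 CPM in DMSO 35 d. After removal the KU60019 and DMSO groups averaged 30.3 ± 1.32 and 44.9 ± 0.878 CPM in the 15 d arm, and 40.5 ± 18.9 and 52.3 ± 11.2 CPM in the 35 d arm. Only 1 of the 8 steps between neighbours in this order, that between KU60019 15 d and IR 10 d, was clear of overlap. Ccnd2 ranged 2.24-fold, with 318 ± 25.1 CPM in IR 10 d, and 299.7 ± 25.6 CPM in KU60019 15 d against 242 ± 28.95 CPM in DMSO 15 d. It had 320.3 ± 7.14 CPM in KU60019 35 d and 247 ± 21.7 CPM in DMSO 35 d. Its removal groups had 365 ± 86.2 (KU60019) and 244 ± 10.2 CPM (DMSO) at 15 d, and 434 ± 41.4 (KU60019) and 542 ± 217 CPM (DMSO) at 35 d. The 3 DMSO groups other than DMSO 35 d then removed lay together at the low end. Ccnd3 ranged 1.87-fold, with 110.0 ± 6.02 CPM in IR 10 d, 103 ± 5.91 CPM in KU60019 15 d and 124 ± 3.23 CPM in DMSO 15 d. In the 35 d groups it had 145 ± 12.6 CPM with KU60019 and 158 ± 9.63 CPM with DMSO. After removal it had 144 ± 19.2 CPM (KU60019) and 171 ± 5.16 CPM (DMSO) at 15 d, and 109 ± 25.9 CPM (KU60019) and 91.5 ± 24.6 CPM (DMSO) at 35 d. Its highest and lowest group means were thus both DMSO groups.

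Cdk4 was the most abundant of the 10 per transcript length, with a median of 150.4 TPM, against 8.34 TPM for Cdk2 and 4.45 TPM for Cdk6, the other partner of the D-type cyclins. Cdk4 averaged 152 ± 7.43 CPM in IR 10 d, and 234 ± 10.6 CPM in KU60019 15 d against 183 ± 22.5 CPM in DMSO 15 d. It had 153 ± 8.91 CPM in KU60019 35 d and 165 ± 17.2 CPM in DMSO 35 d. After removal it had 195 ± 47.2 CPM (KU60019) and 158 ± 3.896 CPM (DMSO) at 15 d, and 169 ± 21.3 CPM (KU60019) and 307 ± 75.6 CPM (DMSO) at 35 d. No neighbouring pair in its order was clear of overlap. Cdk6 averaged 28.7 ± 3.59 CPM in IR 10 d, 37.4 ± 2.74 CPM in KU60019 15 d and 23.2 ± 2.26 CPM in DMSO 15 d, and 31.8 ± 3.26 CPM in KU60019 35 d and 25.2 ± 3.498 CPM in DMSO 35 d. Its removal groups averaged 37.8 ± 7.65 CPM (KU60019) and 27.5 ± 1.98 CPM (DMSO) at 15 d, and 25.9 ± 2.603 CPM (KU60019) and 40.5 ± 31.7 CPM (DMSO) at 35 d. The last of these means rests on the first library, which had 76.8 CPM beside 26.3 and 18.4 CPM. Cdk2, the partner of the E-type cyclins, averaged 16.1 ± 0.889 CPM in IR 10 d, 17.1 ± 1.33 CPM in KU60019 15 d and 18.9 ± 5.24 CPM in DMSO 15 d. It had 13.7 ± 1.03 CPM in KU60019 35 d and 21.6 ± 1.69 CPM in DMSO 35 d. After removal it had 13.4 ± 4.72 CPM (KU60019) and 23.4 ± 0.576 CPM (DMSO) at 15 d, and 11.1 ± 2.11 CPM (KU60019) and 18.3 ± 9.74 CPM (DMSO) at 35 d. Its group means were lower with KU60019 than with DMSO in all 4 pairs.

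Ccne1 was more abundant per length than Ccne2 in every library, with medians of 19.03 and 1.17 TPM. Ccne2 had only 18 to 207 counts a library, so its values carry the widest counting error of the 10. The ratio of Ccne1 to Ccne2 TPM was 27.998 to 41.3 in IR 10 d, 36.3 to 48.7 in KU60019 35 d then removed and 21.4 to 30.4 in KU60019 35 d. In the 4 DMSO groups it was 8.07 to 18.8, and in the 2 KU60019 groups of the 15 d arm it was 10.02 to 20.96. Ccne1 averaged 22.3 ± 1.08 CPM in IR 10 d, 23.9 ± 0.5096 CPM in KU60019 15 d, 21.2 ± 3.79 CPM in DMSO 15 d, 25.6 ± 3.402 CPM in KU60019 35 d and 19.7 ± 1.895 CPM in DMSO 35 d. After removal it averaged 20.7 ± 4.41 CPM (KU60019) and 17.8 ± 0.306 CPM (DMSO) at 15 d, and 28.99 ± 1.65 CPM (KU60019) and 60.7 ± 8.61 CPM (DMSO) at 35 d. The last was the 1 group clear of its neighbour. Ccne2 had the widest span of the 10, 6.58-fold between group means. It averaged 0.953 ± 0.262 CPM in IR 10 d, 2.59 ± 0.404 CPM in KU60019 15 d, 3.01 ± 1.25 CPM in DMSO 15 d, 1.62 ± 0.4096 CPM in KU60019 35 d and 2.37 ± 0.273 CPM in DMSO 35 d. After removal it averaged 1.96 ± 0.357 CPM (KU60019) and 1.998 ± 0.247 CPM (DMSO) at 15 d, and 1.02 ± 0.0961 CPM (KU60019) and 6.27 ± 1.52 CPM (DMSO) at 35 d. Its lowest means were thus those of the irradiated cells and of KU60019 35 d then removed, whose libraries overlapped.

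Cdc25a had its highest mean in DMSO 35 d then removed, clear of the next group. It averaged 12.1 ± 0.296 CPM in IR 10 d, 13.3 ± 0.969 CPM in KU60019 15 d, 10.4 ± 0.663 CPM in DMSO 15 d, 9.25 ± 1.36 CPM in KU60019 35 d and 10.7 ± 0.362 CPM in DMSO 35 d. After removal it averaged 11.2 ± 1.04 CPM (KU60019) and 11.5 ± 0.663 CPM (DMSO) at 15 d, and 11.02 ± 1.03 CPM (KU60019) and 26.9 ± 7.196 CPM (DMSO) at 35 d. Myc, whose mRNA is short-lived, varied widely between libraries of KU60019 15 d then removed, with 51.3, 8.95 and 22.1 CPM. It averaged 34.3 ± 4.48 CPM in IR 10 d, 52.8 ± 8.26 CPM in KU60019 15 d, 24.2 ± 4.796 CPM in DMSO 15 d, 36.9 ± 9.63 CPM in KU60019 35 d and 42.7 ± 7.61 CPM in DMSO 35 d. After removal it averaged 27.5 ± 21.7 CPM (KU60019) and 35.4 ± 2.77 CPM (DMSO) at 15 d, and 34.7 ± 11.2 CPM (KU60019) and 36.8 ± 16.6 CPM (DMSO) at 35 d. No step in its order was clear of overlap.

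The effect of KU60019 while it was present was read at 15 d and at 35 d. After 15 d, Myc was the 1 gene of the 10 that was called, and it was higher. It had 62.3, 47.8 and 48.2 CPM in KU60019 15 d, against 29.2, 19.6 and 23.97 CPM in DMSO 15 d. The groups did not overlap, and the log2 fold change was 1.12 ± 0.40 (adjusted p = 0.0373). Over all 18684 genes 30.3% were called in this comparison and 13.2% were higher, so 1 call among 10 is a smaller share than the background. The call was lost (adjusted p from 0.0592 to 0.107) when any 1 of the 6 libraries was left out, with library size alone (0.0622) and on TPM (0.186). Over all 18 alternatives the log2 fold change stayed between 0.86 and 1.27. With the number of the library as a block, the adjusted p was 0.0413. Endothelial markers moved with the groups, at 11.1 to 15.8 CPM summed in KU60019 15 d and 36.6 to 109.7 CPM in DMSO 15 d, with 8 of 10 called lower and none at 0. Of 7 macrophage markers tested 4 were called lower and 1 higher, and the 10 summed to 43.2 to 64.96 CPM in KU60019 15 d and 49.7 to 107 CPM in DMSO 15 d, with none at 0. Epithelial markers summed to 13.5 to 17.8 CPM in KU60019 15 d, where Epcam was at 0, and 2.35 to 5.05 CPM in DMSO 15 d, with 1 of 3 tested, Krt19, called higher. Fibroblast markers summed to 9424 to 11449 CPM in KU60019 15 d and 28705 to 41569.5 CPM in DMSO 15 d, with 4 of 10 called lower and 2 higher. Pericyte and smooth muscle markers summed to 4163 to 5479 CPM in KU60019 15 d and 1773 to 2651 CPM in DMSO 15 d, with 2 of 8 called lower and 2 higher. The part of these markers in the result was not tested.

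The phosphatase gene Cdc25a had 12.9, 12.6 and 14.4 CPM in KU60019 15 d and 10.6, 9.64 and 10.9 CPM in DMSO 15 d. The groups did not overlap, but the log2 fold change of 0.36 ± 0.15 was not called (adjusted p = 0.0678). Cdk6 had 40.1, 34.7 and 37.4 CPM in KU60019 15 d and 24.02, 20.6 and 24.9 CPM in DMSO 15 d, again without overlap and without a call (0.69 ± 0.30, adjusted p = 0.0899). Cdk4 and Ccnd2 also lay above DMSO in all 3 libraries and Ccnd3 below, so that groups did not overlap in 6 of the 10 genes, against 44.6% of all genes tested. Ccnd1 was called higher (1.36, adjusted p = 0.00904) without the third library of DMSO 15 d. Without the 4 libraries above 0.4% ribosomal RNA, all of other groups, 3 of the 10 were called, Cdk6, Cdc25a and Myc.

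Genes that sit around the 10 in the pathway moved in both directions at 15 d. Of the cdk inhibitors, Cdkn1a (1.47 ± 0.18) and Cdkn2b (0.59 ± 0.16) rose, and 3 of 7 fell, with Cdkn1c at -2.42 ± 0.33 and Cdkn1b, the gene of p27, at -0.91 ± 0.12. Of 11 Myc target genes 6 rose and none fell, among them Odc1, the first enzyme of polyamine synthesis (1.58 ± 0.19), spermidine synthase Srm (0.83 ± 0.18) and the nucleolar genes Nop56 (0.67 ± 0.13) and Nop58 (0.69 ± 0.15). The median over the 11 was 0.48, against -0.023 over all genes tested. Of 16 E2F targets of S phase 5 rose, with the replication licensing factor Cdt1 at 1.30 ± 0.20 and the helicase subunits Mcm7 (0.56 ± 0.12), Mcm2 and Mcm3, and none fell. Of 10 mitosis genes Top2a alone was called, lower by 0.74 ± 0.23. Of 8 genes that growth factors induce, AP-1 genes and Egr1, 7 rose. Fosl1 was at 2.80 ± 0.34, Fos at 1.93 ± 0.46, Egr1 at 1.45 ± 0.47 and Jun at 1.08 ± 0.27. Of 11 Myc family members, partners and antagonists, the partner Max (0.37 ± 0.09) and the family member Mycl (1.35 ± 0.43) rose. The antagonists Mga (-0.56 ± 0.14), Mxd1 (-0.37 ± 0.13) and Mxd4 fell. The pocket protein gene Rbl2 (-0.86 ± 0.27) and Tfdp2 (-0.60 ± 0.10), a dimer partner of E2F, were the 2 of 13 called in their list, both lower. Of 8 genes of kinase activation, Cdc37, a chaperone of Cdk4, rose (0.67 ± 0.15) and Cdc25b fell (-0.42 ± 0.15). Of 10 genes of protein turnover, Rbx1 rose (0.39 ± 0.14) and Ambra1, which marks D-type cyclins for destruction, fell (-0.25 ± 0.09). All values in this paragraph are log2 fold changes.

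After 35 d of KU60019 none of the 10 genes was called by edgeR, against 18.1% of all genes tested. At an unadjusted p under 0.05 there were 3, DESeq2 called 2 (Ccnd1 and Ccne1, both higher) and limma on TPM called 1 (Cdc25a, lower). Ccnd1 had 65.6, 69.8 and 40.6 CPM in KU60019 35 d, against 18.6, 38.8 and 28.6 CPM in DMSO 35 d. Its groups did not overlap, and the log2 fold change was 1.03 ± 0.36 (adjusted p = 0.0503), called without the second library of DMSO 35 d (0.0424) or the third of KU60019 35 d (0.0419). Ccne1 had 22.7, 29.3 and 24.6 CPM in KU60019 35 d and 19.9, 21.4 and 17.6 CPM in DMSO 35 d, with a log2 fold change of 0.38 ± 0.15 (adjusted p = 0.0807). Cdk2 lay lower in all 3 libraries, at 14.4, 14.1 and 12.5 CPM in KU60019 35 d and 20.1, 23.4 and 21.2 CPM in DMSO 35 d (adjusted p = 0.13). Ccne2 did so too, at 1.599, 2.04 and 1.22 CPM in KU60019 35 d and 2.68, 2.17 and 2.27 CPM in DMSO 35 d (adjusted p = 0.169). In all, groups did not overlap in 6 of the 10 genes, against 44.4% of all genes. On TPM the median of all genes shifted by -0.33, and relative to it Ccnd1 was at 0.99 and Ccne1 at 0.34 on the log2 scale. Schwann cell markers moved with these groups, with 5 of 7 tested called higher, sums of 12.003 to 108.5 CPM in KU60019 35 d and 3.54 to 5.66 CPM in DMSO 35 d and no marker of the 8 at 0 in either. Fibroblast markers summed to 15343 to 16042 CPM in KU60019 35 d and 35340.0 to 41779 CPM in DMSO 35 d, with 5 of 10 called lower and 2 higher. Pericyte and smooth muscle markers summed to 671 to 1193 CPM in KU60019 35 d and 2379.9 to 2985 CPM in DMSO 35 d, with 2 of 8 called lower and 1 higher. Macrophage markers summed to 72.5 to 102 CPM in KU60019 35 d and 42.1 to 59.9 CPM in DMSO 35 d. Endothelial markers summed to 9.77 to 12.7 CPM in KU60019 35 d and 6.01 to 7.23 CPM in DMSO 35 d. Sums of epithelial markers (2.59 to 4.54 against 1.45 to 1.94 CPM) and mesothelial markers (7.91 to 16.2 against 3.41 to 4.17 CPM) were also higher with KU60019. The part of all these markers in the result was not tested.

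Of the regulators at 35 d, 3 of 7 cdk inhibitors rose, Cdkn1c (1.27 ± 0.30), Cdkn2b (0.77 ± 0.16) and Cdkn1a (0.74 ± 0.18), and Cdkn1b (-0.86 ± 0.12) and Cdkn2c (-0.85 ± 0.27) fell. Among the E2F targets Cdt1 (0.69 ± 0.20) rose and the thymidine kinase gene Tk1 fell (-0.71 ± 0.21). Skp2 (-0.72 ± 0.21) and Cul1 (-0.30 ± 0.10), parts of the ligase that removes p27 protein, fell, as did Cdc20 (-0.68 ± 0.20) alone of 10 mitosis genes. Polr1b (-0.45 ± 0.14) alone of 11 Myc targets fell, and Mycl (-1.38 ± 0.47) alone of 11 Myc family members, partners and antagonists. None of the 8 genes of the AP-1 and Egr1 list was called (1 at an unadjusted p under 0.05, lower). Nor was any of 13 pocket protein and E2F genes or 8 of kinase activation (0 at an unadjusted p under 0.05 in both lists).

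The difference between the 35 d and 15 d effects was tested directly, and edgeR called none of the 10 genes (2 at an unadjusted p under 0.05, Cdc25a and Myc, and 0 by DESeq2 and by limma on TPM), against 11.7% of all genes tested. Cdc25a had the lowest p, with the 35 d effect below the 15 d effect by 0.57 ± 0.21 on the log2 scale (adjusted p = 0.0775). Fitted on the 12 libraries of these groups alone, 2 genes were called lower, Cdc25a and Myc. The Myc call at 15 d is therefore not shown to differ from its result at 35 d by the test over all 27 libraries.

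**Figure D3:**
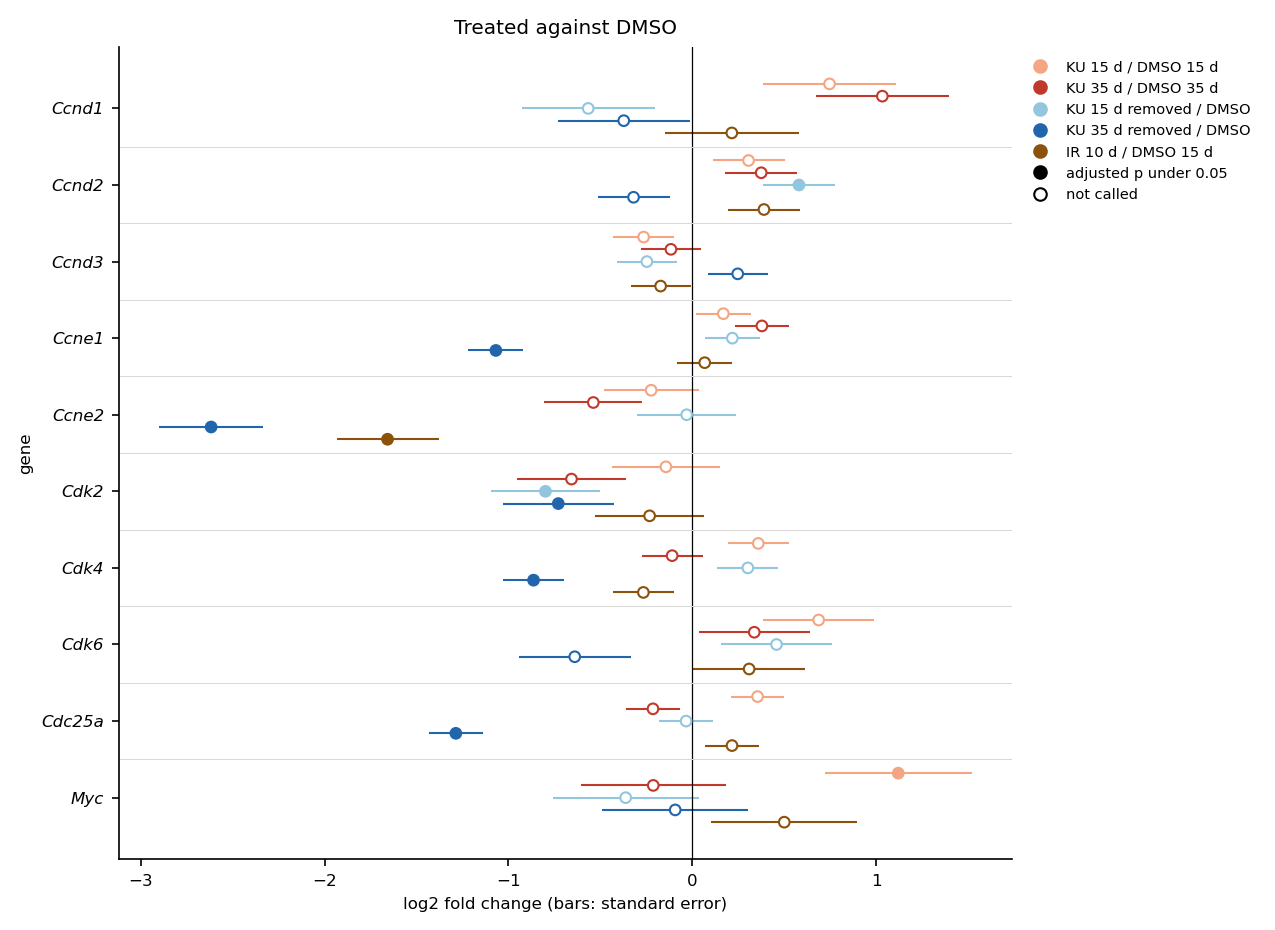
Log2 fold change of each gene in 5 treated groups over their DMSO groups, with standard errors as bars. Filled points have an adjusted p under 0.05: Myc after 15 d of KU60019, Ccnd2 and Cdk2 after removal at 15 d, Ccne1, Ccne2, Cdk2, Cdk4 and Cdc25a after removal at 35 d, and Ccne2 after irradiation.

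After KU60019 had been withdrawn at 15 d, 20 d later, Ccnd2 rose and Cdk2 fell relative to the matched DMSO cells. These are 2 of 10, while 48.7% of all genes were called, 24.7% higher and 24% lower. Ccnd2 had 314, 465 and 318 CPM in KU60019 15 d then removed and 242, 255 and 235 CPM in DMSO 15 d then removed. The groups did not overlap, and the log2 fold change was 0.58 ± 0.20 (adjusted p = 0.0188). Cdk2 had 16.9, 8.04 and 15.4 CPM in KU60019 15 d then removed and 23.5, 22.7 and 23.8 CPM in DMSO 15 d then removed, also without overlap, with -0.80 ± 0.30 (adjusted p = 0.0315). Both changes were larger in the second library of the KU60019 group, without which the adjusted p was 0.153 for Ccnd2 and 0.17 for Cdk2. In that fit Ccne1 (0.38, adjusted p = 0.0403) and Cdk4 (0.48, adjusted p = 0.0259) were called higher in their place. That library stood apart from its replicates, with a chi-square of 286 and 136 per gene, against 72.0 between those replicates. It was not alone in this. The first library of DMSO 35 d then removed had 227 and 397, against 50.1 between its replicates. The second library of DMSO 15 d had 160 and 179, against 56.7 between its replicates. Without the first library of the KU60019 group Myc was called lower as well (-1.19, adjusted p = 0.01). Without the first or the third library of the DMSO group Ccnd2 was at 0.0512 and 0.0558, and without any 1 of the 3 DMSO libraries Cdk2 was at 0.0606 to 0.0635. On TPM the median of all genes shifted by -0.47, and relative to it Ccnd2 was at 0.46 and Cdk2 at -0.80, while the unshifted Ccnd2 value was -0.01. The length correlation was -0.27 to -0.12 in KU60019 15 d then removed and 0.37 to 0.40 in DMSO 15 d then removed. With that length trend removed, Ccnd2 (adjusted p = 0.00194) and Cdk6 (0.0403) were called higher and Cdk2 was not called (0.0864).

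Ccnd1 lay lower in all 3 libraries, at 31.7, 29.1 and 30.2 CPM in KU60019 15 d then removed and 43.8, 45.4 and 45.3 CPM in DMSO 15 d then removed, but was not called (adjusted p = 0.2). With only the compared groups in the fit, Ccnd1 was called lower and Ccnd2 higher, and Cdk2 was not called. By limma on TPM, where the median of all genes shifted by -0.47, Ccnd1, Ccnd3, Cdk2, Cdc25a and Myc were called, all lower. Groups did not overlap in 5 of the 10 genes, against 56.8% of all genes tested. Of the pathway genes, 3 of 7 cdk inhibitors rose, with Cdkn1c at 1.83 ± 0.29, Cdkn2a, the gene of p16 and p19Arf, at 1.66 ± 0.32 and Cdkn2b at 1.33 ± 0.16, and Cdkn1b fell (-0.56 ± 0.12). Of 16 E2F targets 6 rose and none fell, where 24.7% of all genes tested were called higher and 24% lower. Among the 6 were Mcm6 (0.84 ± 0.13), Cdt1 (0.77 ± 0.20), Tyms (0.63 ± 0.17) and Mcm7 (0.47 ± 0.12). Of 11 Myc targets 4 rose, Srm (1.07 ± 0.19), Npm1 (0.97 ± 0.17), Fbl (0.95 ± 0.20) and Ncl (0.73 ± 0.17). Of 11 Myc family members, partners and antagonists 6 fell. Among them were the antagonists Mxi1 (-0.75 ± 0.10) and Mxd1 (-0.66 ± 0.13) and the family member Mycl (-2.09 ± 0.44). The partner Max and the antagonist Mxd3 rose. Of 13 pocket protein and E2F genes 5 fell and none rose, with Rbl2 at -1.38 ± 0.28, E2f3 at -0.52 ± 0.11 and Tfdp1 at -0.88 ± 0.30. The turnover list split, with Cks1b (0.99 ± 0.16), Rbx1 (0.83 ± 0.15), Skp1 and Fbxw7 higher and Skp2 (-0.87 ± 0.21), Ambra1 and Gsk3b lower. Jund (1.49 ± 0.32) and Mki67 (0.57 ± 0.24) were the called genes of the AP-1 and mitosis lists. Schwann cell markers moved with the groups here as well (5 of 7 tested called higher and 1 lower, 8.48 to 71.4 CPM summed in KU60019 15 d then removed, 4.16 to 6.31 CPM in DMSO 15 d then removed, none of the 8 at 0). Fibroblast markers summed to 21211 to 25390.5 CPM in KU60019 15 d then removed and 45354 to 51459 CPM in DMSO 15 d then removed, with 6 of 10 called lower and 1 higher. Pericyte and smooth muscle markers summed to 2623 to 3648 CPM in KU60019 15 d then removed and 4225 to 5204 CPM in DMSO 15 d then removed, with 4 of 8 called lower and 1 higher. The part of these markers and of the length trend in the result was not tested beyond the fit above.

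The KU60019 effect at 15 d was compared with that after removal. No gene of the 10 was called by edgeR, against 25.4% of all genes, with 2 at an unadjusted p under 0.05, 2 called by DESeq2 (Ccnd1 and Myc) and 3 by limma on TPM (Ccnd1, Cdc25a and Myc), all lower. On TPM the median of all genes shifted in the same direction, by -0.26. For Ccnd1 the effect after removal was below that before it by 1.31 ± 0.51 (adjusted p = 0.0622), and for Myc by 1.48 ± 0.56 (adjusted p = 0.0561). Ccnd1 was called without the third library of DMSO 15 d (adjusted p = 0.00584) and Myc without the first of KU60019 15 d then removed (0.00136). Set directly against KU60019 15 d, the removed cells had more Ccnd3 (145, 125 and 163 CPM in KU60019 15 d then removed, against 110.0, 99.4 and 100.1 CPM in KU60019 15 d, 0.48 ± 0.16, adjusted p = 0.0235), 1 call of 10 where 40.3% of all genes were called and 21.3% higher. Without the second or the third library of KU60019 15 d, or the third of the removed group, Ccnd3 was not called (adjusted p = 0.0805, 0.0813 and 0.105). It was called in 7 of 12 other alternatives, with log2 fold changes from 0.11 to 0.55. By limma on TPM, where the median of all genes shifted by -0.28, Ccnd3 was not called. Ccne1, Cdk4, Cdc25a and Myc were called on that scale, all lower. Myc was lower by 0.94 ± 0.40 without a call (adjusted p = 0.0644), and by 1.77 with a call (adjusted p = 0.000893) when the first library of the removed group, at 51.3 CPM, was left out.

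After removal at 35 d, 5 of the 10 genes fell in KU60019 cells relative to DMSO cells and none rose, against 48.9% of all genes called and 24.5% lower. The E-type cyclins and Cdc25a led. Ccne2 had 1.003, 0.931 and 1.12 CPM in KU60019 35 d then removed, against 5.24, 5.56 and 8.02 CPM in DMSO 35 d then removed. Every KU60019 library was below every DMSO library, and the log2 fold change was -2.62 ± 0.28 (adjusted p = 1.14e-07). Cdc25a had 9.84, 11.8 and 11.5 CPM in KU60019 35 d then removed, against 35.3, 22.9 and 22.6 CPM in DMSO 35 d then removed (-1.29 ± 0.15, adjusted p = 2.76e-07). Ccne1 had 29.7, 30.1 and 27.1 CPM in KU60019 35 d then removed, against 52.3, 69.5 and 60.4 CPM in DMSO 35 d then removed (-1.07 ± 0.15, adjusted p = 4.26e-06). Neither gene's groups overlapped. Cdk4 had 185, 177 and 145 CPM in KU60019 35 d then removed, against 229, 313 and 379.9 CPM in DMSO 35 d then removed (-0.86 ± 0.17, adjusted p = 0.000203), with no overlap. These 4 kept their call when any 1 of the 6 libraries was left out, and groups did not overlap in 4 of the 10 genes, against 49.6% of all genes.

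Cdk2 had 11.3, 13.2 and 8.95 CPM in KU60019 35 d then removed and 7.47, 20.9 and 26.4 CPM in DMSO 35 d then removed, where the first library lay below all 3 KU60019 libraries. Its call (-0.73 ± 0.30, adjusted p = 0.0491) was lost without any 1 library other than that one (adjusted p from 0.0503 to 0.343) and with 0.249 by library size alone. Cdk6 had 26.4, 28.1 and 23.02 CPM in KU60019 35 d then removed and 76.8, 26.3 and 18.4 CPM in DMSO 35 d then removed, and was not called (-0.64 ± 0.30, adjusted p = 0.0872). Without the first DMSO library its difference turned positive, 0.21 (adjusted p = 0.347), and without the second or the third DMSO library it was called lower (adjusted p = 0.0305 and 0.00361). The D-type cyclins and Myc were not called with all libraries. Without the third DMSO library Ccnd2 was called lower and Ccnd3 higher (adjusted p = 0.0162 and 0.0206), and without the third KU60019 library Ccnd3 was called higher (0.0294). Myc had 31.9, 46.9 and 25.1 CPM in KU60019 35 d then removed and 19.2, 39.01 and 52.1 CPM in DMSO 35 d then removed. The choice of scaling mattered in this comparison. On TPM the median of all genes shifted by 0.32, and relative to it the values were -1.45 for Ccne2, -0.99 for Cdc25a, -0.88 for Ccne1 and -0.68 for Cdk4, the last without a call (adjusted p = 0.232). With library size alone the median shifted by 0.29 and the 4 genes stayed called, and Ccnd3 was called higher on both unshifted scales (adjusted p = 0.0291 on TPM and 0.0451 with library size). Without the libraries above 0.4% ribosomal RNA, the genes called were Ccne1, Ccne2, Cdk2, Cdk4 and Cdc25a, all lower. That fit has 1 library of DMSO 35 d then removed, which is assumed to vary like the other groups, and it lacks the DMSO library in which Cdk2 was low.

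**Figure D4:**
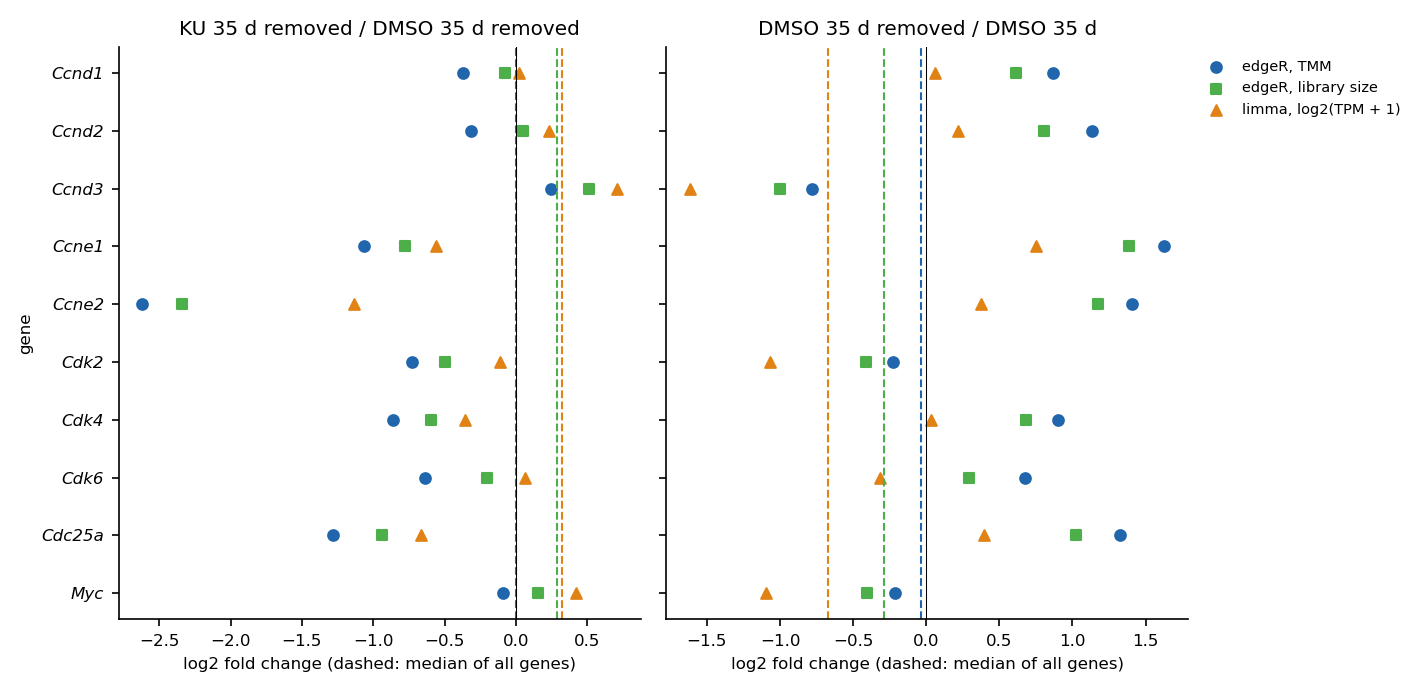
Log2 fold change of each gene under 3 ways of scaling, for KU60019 over DMSO after removal at 35 d and for DMSO 35 d then removed over DMSO 35 d. Dashed lines mark the median of all genes under the same scaling. On TPM that median is 0.32 in the left panel and -0.67 in the right panel, and Ccne1, Ccne2 and Cdc25a keep their side of it under all 3.

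Genes of S phase and mitosis were lower in this comparison. All 10 mitosis genes fell, with a median of -5.42, and Mki67, a marker of cycling cells, was at -6.74 ± 0.30, Cdc20 at -5.87 ± 0.24, Aurka at -4.80 ± 0.21 and Ccnb2 at -5.57 ± 0.28. All 16 E2F targets fell (median -3.08, against -0.0037 over all genes), with Tk1 at -5.23 ± 0.24, Mcm6 at -3.77 ± 0.14, Mcm7 at -3.24 ± 0.13 and Mcm3 at -3.13 ± 0.17. Of 13 pocket protein and E2F genes 7 fell and 2 rose, with E2f8 (-5.00 ± 0.48), E2f7 (-4.89 ± 0.53), Rbl1 (-1.59 ± 0.19) and E2f2 (-2.08 ± 0.27) lowest in p. The other Cdc25 genes fell as well, Cdc25b by 2.87 ± 0.16 and Cdc25c by 4.74 ± 0.33, with the inhibitory kinases Pkmyt1 (-2.89 ± 0.29) and Wee1 (-1.35 ± 0.20). In all, 5 of the 8 genes of kinase activation fell and 1 rose. Of 11 Myc targets 10 fell and none rose, with Fbl at -1.58 ± 0.20, Ncl at -1.44 ± 0.18, Npm1 at -1.35 ± 0.17 and Nop56 at -1.08 ± 0.13. Of 11 Myc family members, partners and antagonists 5 fell and 2 rose. Among them Mxd3, a Myc antagonist known to be high in S phase, fell by 5.98 ± 0.35. Cks1b (-2.43 ± 0.17) and Skp2 (-1.42 ± 0.21) fell, and Btrc (0.62 ± 0.10) and Ambra1 (0.47 ± 0.09) rose. Of the cdk inhibitors Cdkn1c rose by 2.63 ± 0.33 and Cdkn1a by 0.62 ± 0.18, and Cdkn2c (-1.29 ± 0.28), Cdkn2d (-0.91 ± 0.18) and Cdkn1b fell. Of 8 genes of the AP-1 and Egr1 list 4 rose, Fosb (3.89 ± 0.72), Fos (2.40 ± 0.47), Egr1 (2.23 ± 0.48) and Junb (1.33 ± 0.34), and 1 fell. All are log2 values.

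The DMSO cells themselves differed before and after removal at 35 d. Against DMSO 35 d, 6 of the 10 genes rose in DMSO 35 d then removed and 1 fell, where 64.1% of all genes were called, 31.5% higher and 32.6% lower. Ccne1 rose to 52.3, 69.5 and 60.4 CPM in DMSO 35 d then removed, against 19.9, 21.4 and 17.6 CPM in DMSO 35 d (1.63 ± 0.15, adjusted p = 1.42e-08). Cdc25a rose to 35.3, 22.9 and 22.6 CPM in DMSO 35 d then removed, against 10.5, 11.2 and 10.5 CPM in DMSO 35 d (1.32 ± 0.15, adjusted p = 1.70e-07). Ccne2 (1.41 ± 0.26), Ccnd2 (1.13 ± 0.20), Cdk4 (0.90 ± 0.17) and Ccnd1 (0.87 ± 0.36, adjusted p = 0.0409) rose as well. Ccnd3 fell to 67.5, 90.3 and 117 CPM in DMSO 35 d then removed, against 149, 155 and 168 CPM in DMSO 35 d (-0.78 ± 0.16, adjusted p = 0.000327). Groups did not overlap for any of these 7 genes, against 62.8% of all genes tested. On TPM, where the median of all genes shifted by -0.67, the values relative to it were 1.43 for Ccne1, 1.07 for Cdc25a, 1.05 for Ccne2, 0.89 for Ccnd2, 0.71 for Cdk4, 0.74 for Ccnd1 and -0.94 for Ccnd3. On that scale Ccnd1, Ccnd2, Ccne2 and Cdk4 were not called, and Cdk2 and Myc were called lower. Without the libraries above 0.4% ribosomal RNA, which leaves 1 library of DMSO 35 d then removed and assumes that it varies like the other groups, 4 genes were called (Ccne1, Ccne2, Cdk4 and Cdc25a, all higher). Ccnd1 was not called without the first or the third library of DMSO 35 d or of the removed group (adjusted p from 0.0563 to 0.162). Cdk6 was not called (0.68 ± 0.30, adjusted p = 0.0561) and was lower, at -0.17, without the first library of the removed group, while without the second or the third it was called higher (adjusted p = 0.0189 and 0.00167), as it was by DESeq2. Fibroblast markers summed to 14412 to 17040.3 CPM in DMSO 35 d then removed and 35340.0 to 41779 CPM in DMSO 35 d, with 7 of 10 called lower and 3 higher. Pericyte and smooth muscle markers summed to 5800.0 to 11666 CPM in DMSO 35 d then removed and 2379.9 to 2985 CPM in DMSO 35 d, with 4 of 8 called lower and 3 higher. Epithelial markers summed to 24.3 to 71.6 CPM in DMSO 35 d then removed and 1.45 to 1.94 CPM in DMSO 35 d, where Cdh1 was at 0, with 2 of 3 tested called higher. Macrophage markers summed to 24.4 to 35.2 CPM in DMSO 35 d then removed and 42.1 to 59.9 CPM in DMSO 35 d. Sums of Schwann cell markers (11.4 to 20.7 against 3.54 to 5.66 CPM) and endothelial markers (9.27 to 13.1 against 6.01 to 7.23 CPM) were higher after removal. The part of these markers in the result was not tested.

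In the KU60019 cells the same step left the 10 genes without a call. KU60019 35 d then removed was set against KU60019 35 d, and edgeR called 0 of the 10 where it called 12.6% of all genes (3 at an unadjusted p under 0.05, 1 by DESeq2, Ccnd3 lower, and 0 by limma on TPM). Ccne1 had 29.7, 30.1 and 27.1 CPM in KU60019 35 d then removed and 22.7, 29.3 and 24.6 CPM in KU60019 35 d, and Cdc25a had 9.84, 11.8 and 11.5 CPM in KU60019 35 d then removed and 8.33, 10.8 and 8.61 CPM in KU60019 35 d. Ccne2 was at 1.003, 0.931 and 1.12 CPM in KU60019 35 d then removed and 1.599, 2.04 and 1.22 CPM in KU60019 35 d, without overlap and without a call (adjusted p = 0.113). Ccnd2 lay higher without overlap (0.44 ± 0.20, adjusted p = 0.137), and was called with only the compared groups in the fit. Ccnd3 (-0.42 ± 0.16, adjusted p = 0.0917) and Cdk6 (-0.30 ± 0.30, adjusted p = 0.537) lay lower without overlap. In the DMSO cells Ccnd2 also lay higher and Ccnd3 lower, both called. Mki67 fell by 1.55 ± 0.25 on the log2 scale in these cells, while it rose by 4.71 ± 0.27 in DMSO 35 d then removed over DMSO 35 d. Cdkn1a rose in both, by 0.92 ± 0.18 in KU60019 and 1.05 ± 0.18 in DMSO cells.

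The difference between the 35 d KU60019 effect after removal and before it was called below zero for 5 of the 10 genes, against 32.4% of all genes called and 16.6% lower. It was -2.08 ± 0.38 for Ccne2 (adjusted p = 0.000327), -1.45 ± 0.21 for Ccne1 (2.47e-05) and -1.07 ± 0.21 for Cdc25a (0.000512). For Cdk4 it was -0.75 ± 0.24 (0.0183) and for Ccnd1 -1.41 ± 0.51 (0.0383). On TPM the median of all genes shifted by 0.66, and relative to it the values were -1.31 for Ccne2, -1.24 for Ccne1, -0.86 for Cdc25a, -0.57 for Cdk4 and -1.30 for Ccnd1, none of them called on the unshifted scale. The call of Ccnd1 was lost in 7 of the 12 fits that left out 1 library (adjusted p up to 0.0948) and that of Cdk4 in 3 (up to 0.0568). Ccnd2 (-0.69 ± 0.28, adjusted p = 0.0584) and Cdk6 (-0.98 ± 0.43, adjusted p = 0.0852) did not pass. Without the third library of DMSO 35 d then removed both were called below zero (adjusted p = 0.00513 and 0.0056) and Ccnd3 above zero (0.0411), and without the second Cdk6 was called (0.0394). Epithelial markers summed to 3.53 to 5.32 CPM in KU60019 35 d then removed and 24.3 to 71.6 CPM in DMSO 35 d then removed, where Krt8 and Nkx2-1 were at 0, with 2 of 3 tested called lower. Schwann cell markers summed to 10.3 to 38.7 CPM in KU60019 35 d then removed and 11.4 to 20.7 CPM in DMSO 35 d then removed, where Foxd3 was at 0, with 5 of 7 tested called higher. Fibroblast markers summed to 10110.0 to 12650.0 CPM in KU60019 35 d then removed and 14412 to 17040.3 CPM in DMSO 35 d then removed, with 5 of 10 called lower and 3 higher. Pericyte and smooth muscle markers summed to 1382 to 1995 CPM in KU60019 35 d then removed and 5800.0 to 11666 CPM in DMSO 35 d then removed, with 4 of 8 called lower and 2 higher. Macrophage markers summed to 87.8 to 122 CPM in KU60019 35 d then removed and 24.4 to 35.2 CPM in DMSO 35 d then removed. Endothelial markers summed to 14.6 to 22.1 CPM in KU60019 35 d then removed and 9.27 to 13.1 CPM in DMSO 35 d then removed. These sums and counts are for the comparison after removal, and the part of these markers in the result was not tested.

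**Figure D5:**
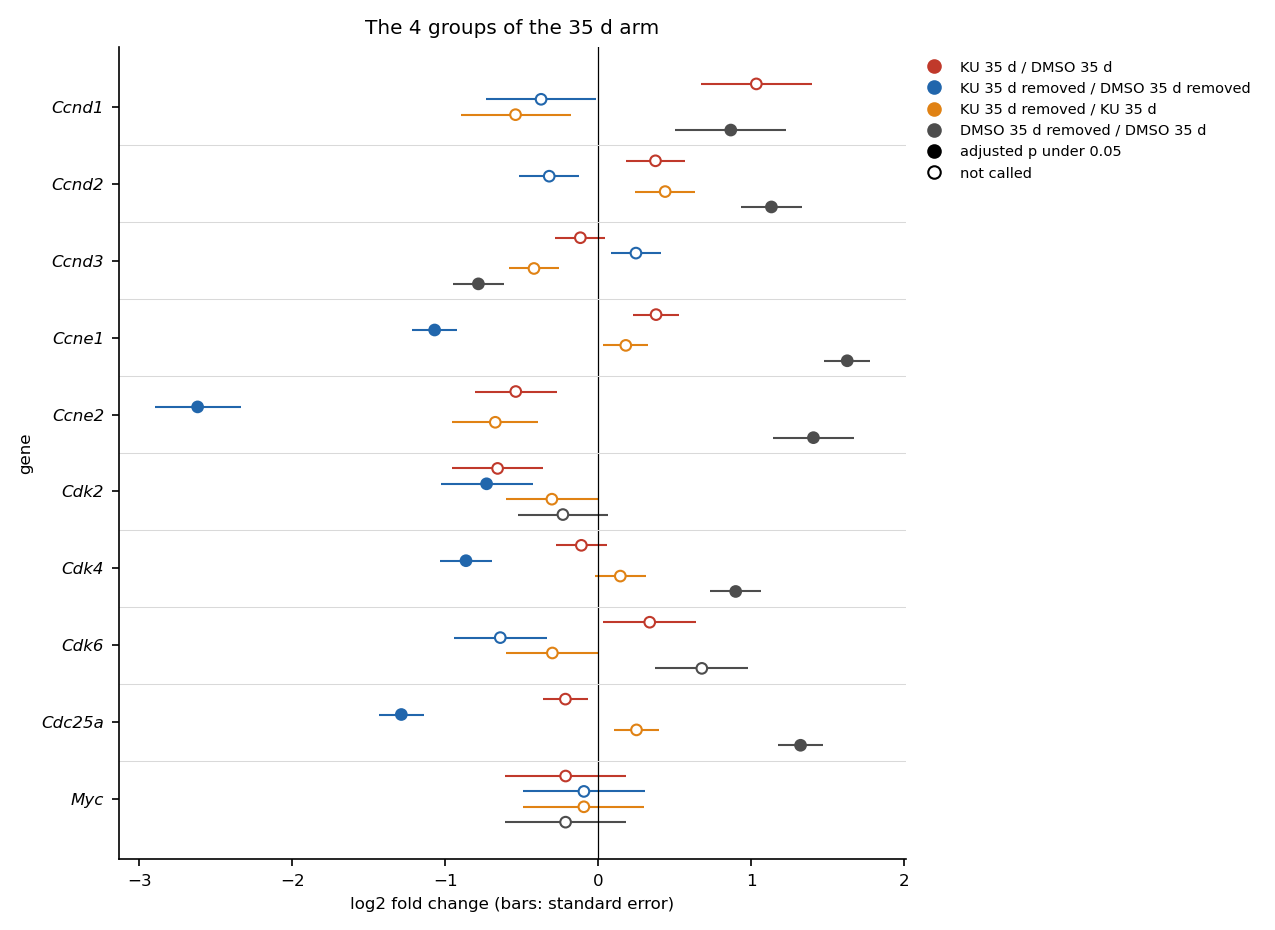
Log2 fold changes with standard errors between the 4 groups of the 35 d arm. Filled points have an adjusted p under 0.05. Ccne1, Ccne2, Cdk4 and Cdc25a are lower in KU60019 than in DMSO after removal and higher in DMSO 35 d then removed than in DMSO 35 d, and no gene is called between KU60019 35 d then removed and KU60019 35 d.

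Irradiation, the positive control for senescence, left 9 of the 10 genes without a call 10 d later. Ccne2 fell, 1 of 10, where 30.9% of all genes were called and 16.8% lower. It had 0.805, 1.26 and 0.799 CPM in IR 10 d, against 2.44, 2.15 and 4.44 CPM in DMSO 15 d. The groups did not overlap, and the log2 fold change was -1.66 ± 0.28 (adjusted p = 0.000113). Ccne1 was not called, with 22.1, 23.4 and 21.3 CPM in IR 10 d and 16.9, 22.9 and 23.9 CPM in DMSO 15 d (adjusted p = 0.757). Ccnd1 had 17.4, 19.2 and 16.7 CPM in IR 10 d and 13.98, 5.95 and 25.8 CPM in DMSO 15 d (adjusted p = 0.683). Cdc25a had 11.9, 12.4 and 11.9 CPM in IR 10 d and 10.6, 9.64 and 10.9 CPM in DMSO 15 d, without overlap but without a call (adjusted p = 0.275). Groups did not overlap in 6 of the 10 genes, against 43.8% of all genes. Against DMSO 35 d as control, 2 of the 10 were called (Ccnd3 and Ccne2, both lower), and against DMSO 15 d then removed 3 (Ccnd1, Ccnd3 and Ccne2, all lower), so that Ccne2 was called against each of the 3 controls.

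Genes of S phase and mitosis fell after irradiation. Mki67 fell by 4.74 ± 0.29, and all 10 mitosis genes were lower (median -2.99), with Top2a at -3.29 ± 0.25, Ccnb2 at -3.32 ± 0.27 and Cdc20 at -2.70 ± 0.22. Of 16 E2F targets 12 fell and none rose (median -0.97, against -0.0063 over all genes), with Mcm6 at -1.66 ± 0.13, Tk1 at -2.35 ± 0.22, Ccna2, the cyclin of S phase, at -2.74 ± 0.31 and Rrm2 at -1.94 ± 0.25. Cdkn1a rose by 2.86 ± 0.19, with 1005, 1161 and 1379 CPM in IR 10 d and 174, 145 and 169.9 CPM in DMSO 15 d, and Cdkn1b (-0.63 ± 0.12) and Cdkn2c (-1.17 ± 0.27) fell. Of 8 genes of kinase activation 3 fell, Cdc25c (-2.47 ± 0.33), Cdc25b (-1.07 ± 0.15) and Pkmyt1 (-1.44 ± 0.28), and 1 rose. Of 13 pocket protein and E2F genes 5 fell, with E2f8 at -4.23 ± 0.53, E2f7 at -3.71 ± 0.56, Rbl2 at -1.31 ± 0.28 and Tfdp2 at -0.57 ± 0.10, and Cks1b (-0.69 ± 0.16) alone of the turnover genes. Of 11 Myc targets 3 rose, Odc1 (0.81 ± 0.19), Srm (0.78 ± 0.18) and Nolc1 (0.37 ± 0.13). Of 11 Myc family members, partners and antagonists 2 rose and 2 fell. Among them Mycl, of the Myc family, rose (1.99 ± 0.43) and the Myc antagonist Mxd3 fell (-3.80 ± 0.35). Of the AP-1 genes Fosl1 (2.66 ± 0.34) and Jund (0.83 ± 0.31) rose. Endothelial markers summed to 15.7 to 19.5 CPM in IR 10 d and 36.6 to 109.7 CPM in DMSO 15 d, with 9 of 10 called lower and none at 0. Fibroblast markers summed to 13838 to 19755 CPM in IR 10 d and 28705 to 41569.5 CPM in DMSO 15 d, with 5 of 10 called lower and 1 higher. Pericyte and smooth muscle markers summed to 6875 to 8343 CPM in IR 10 d and 1773 to 2651 CPM in DMSO 15 d, with 2 of 8 called lower and 3 higher. Their part in these results was not tested.

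DMSO 35 d was compared with DMSO 15 d and with DMSO 15 d then removed. Between DMSO 35 d and DMSO 15 d edgeR called 0 of 10 and 1.56% of all genes (2 of 10 at an unadjusted p under 0.05, 0 by DESeq2 and 0 by limma on TPM). Myc lay higher in all libraries, at 40.4, 36.6 and 51.3 CPM in DMSO 35 d and 29.2, 19.6 and 23.97 CPM in DMSO 15 d (adjusted p = 0.563), and Ccnd3 did too, at 149, 155 and 168 CPM in DMSO 35 d and 126, 120.2 and 125 CPM in DMSO 15 d (adjusted p = 0.531). Groups did not overlap in 2 of the 10 genes, against 15.3% of all genes. Without the third library of DMSO 15 d, Ccnd1 was called higher in DMSO 35 d (1.51, adjusted p = 0.0354). Between DMSO 15 d then removed and DMSO 35 d, both 35 d in culture, edgeR called 0 of 10 and 0.161% of all genes (0 at an unadjusted p under 0.05, 0 by DESeq2 and 0 by limma on TPM), and Ccnd1 alone of the 10 did not overlap, against 22.1% of all genes, at 43.8, 45.4 and 45.3 CPM in DMSO 15 d then removed and 18.6, 38.8 and 28.6 CPM in DMSO 35 d. The comparisons with DMSO 15 d share those 3 control libraries, as do those with DMSO 35 d, so their values for 1 gene are not independent.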

How the data were processed

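RNA-seq count and TPM tables of 27 libraries were analysed. The deposited counts are whole numbers of reads per gene, not normalized, which the authors made using featureCounts and mm10 (submitters' processing notes, per the labels). The deposited TPM values were scaled by the authors for transcript length and depth. No source used here gives the aligner, the annotation release or the strand setting. The count test was that of edgeR 4.0.16, run under R 4.3.3 (TMM scaling, filterByExpr with a count minimum of 10, robust quasi-likelihood fit of 9 group means over all 27 libraries, Benjamini-Hochberg over 18684 genes). Standard errors are approximate, from the fold change and its F statistic. TPM was tested with limma 3.58.1 on log2(TPM + 1), which understates changes of low genes, and DESeq2 1.42.0 was an alternative. The fits were tested on simulated data. The members and the gene lists were chosen with earlier results of these data known. Most pathway genes named with values are from the 4 of lowest p per list among those called, but not all of those 4 are named in every comparison. A few others were named after their values were seen. The value of 1 E2F target is not reported here.

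Libraries of 1 group always differed by more than sampling noise, with a chi-square of at least 8.48 per gene. Libraries of the same number deviated together in KU60019 15 d and DMSO 15 d (correlations of 0.494, 0.351 and 0.504), in KU60019 15 d then removed and KU60019 15 d (0.155, 0.159 and 0.121) and in KU60019 35 d then removed and KU60019 35 d (0.201, 0.191 and 0.493), which meets the rule for pairing, over 0.1 in every pair. Counting error was smallest in the deepest libraries and largest for Ccne2. Alternatives changed the scaling, the filter, the tool, the libraries or the control group. Fits on protein-coding genes alone and without libraries above 0.4% ribosomal RNA were chosen after seeing the data, as were the comparisons of KU60019 cells after removal with KU60019 cells before it.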

Additional observations from a re-analysis of the deposited data

Results flagged for a closer look

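The KU60019 effect after removal at 35 d differed from the effect before removal in 5 of the 10 genes, by edgeR's test of the difference itself. The difference, on the log2 scale, was -1.41 for Ccnd1, -1.45 for Ccne1, -2.08 for Ccne2, -0.75 for Cdk4 and -1.07 for Cdc25a. Each effect compares KU60019 with its own DMSO group, and no library is shared between them. Over all genes 32.4% were called in this test. Of 12 fits that left out 1 library, Ccnd1 was called in 5 and Cdk4 in 9, and the other 3 genes in all. By limma on TPM none of the 5 was called, and Cdk4 was at 0.0998 there at most. All 5 were called higher in DMSO 35 d then removed over DMSO 35 d. In KU60019 35 d then removed over KU60019 35 d none was called.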

How the results depend on the processing

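Of 692 values of single genes under alternatives, 527 kept their direction and their side of the threshold, 93 lost the call, 49 gained one and 23 turned round. Of 517 counts and shares, 409 stayed close and 108 moved. Counts of the 10 genes called, where they moved, were as follows. In KU60019 15 d over DMSO 15 d (1 of 10) there were 0 with library size alone, without the filter and on TPM at each setting, 2 with the compared groups only and with protein-coding genes, and 3 with the length trend removed and without the libraries above 0.4% ribosomal RNA. In KU60019 35 d over DMSO 35 d (0) there were 1 with RLE, on TPM, with the length trend removed and without the rRNA-rich libraries, 2 with DESeq2 and protein-coding genes, and 4 with the compared groups only. After removal at 15 d (2) there were 1 without the filter and 5 on TPM, and at 35 d (5) 2 on unfiltered TPM. For irradiation (1) there were 2 with the length trend removed, without the rRNA-rich libraries and against DMSO 35 d, and 3 against DMSO 15 d then removed. For the 35 d minus 15 d effects (0) there were 2 with the compared groups only and 1 without the rRNA-rich libraries. For the 15 d removal difference (0) there were 2 with DESeq2, 3 on TPM and 2 with a pseudocount of 0.1. For the 35 d removal difference (5) there were 3 with library size alone and without the filter, 1 on TPM and 2 with a pseudocount of 0.1. In DMSO 35 d then removed over DMSO 35 d (7) there were 4 on unfiltered TPM and without the rRNA-rich libraries. In KU60019 15 d then removed over KU60019 15 d (1) there were 2 with library size alone, DESeq2 and unfiltered TPM, 0 without the filter and 4 on TPM, and in the 35 d arm (0) there was 1 with library size alone, DESeq2 and the compared groups only.

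Counts of all genes called also moved. KU60019 35 d then removed over DMSO (9130) had 5487 with the compared groups only and 5596 without the rRNA-rich libraries, and DMSO 35 d then removed over DMSO 35 d (11978) had 7381 without them. The 35 d removal difference (6060) had 2966 without them, the 15 d one (4751) 2727 on unfiltered TPM, and the 35 d minus 15 d effects 1339 at a pseudocount of 0.1, against 2184. DMSO 35 d over DMSO 15 d (292) had 454 with DESeq2, 14 with the compared groups only, 141 on TPM and 102 at a pseudocount of 0.1. DMSO 15 d then removed over DMSO 35 d (30) had 160 with DESeq2, 51 with the replicate block, 252 with the compared groups only and 10 at a pseudocount of 0.1. KU60019 35 d then removed over KU60019 35 d (2352) had 1325 without the filter, 4375 with the compared groups only, 1482 on TPM and 1426 at a pseudocount of 0.1. The share of Ccnd1 among D-type cyclins by counts per kilobase was 7.54% in IR 10 d, 11.2% in KU60019 15 d, 10.5% in KU60019 15 d then removed, 17.3% in DMSO 15 d then removed, 19.6% in KU60019 35 d and 11.9% in DMSO 35 d.

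Leaving out 1 library gave 3639 to 7079 genes and 0 to 1 of the 10 for KU60019 15 d, 1932 to 3586 and 0 to 1 for KU60019 35 d, 0 to 3 of the 10 after removal at 15 d, 1409 to 2319 genes and 0 to 1 of the 10 for the 35 d minus 15 d effects, 0 to 1 for the 15 d removal difference and 3 to 6 for the 35 d one. It gave 125 to 288 genes and 0 to 1 of the 10 for DMSO 35 d over DMSO 15 d, 0 to 24 genes for DMSO 15 d then removed, 0 to 2 of the 10 for KU60019 removed at 15 d over before, and 629 to 2513 genes and 0 to 1 of the 10 for the same at 35 d. The lowest counts of genes came without the first library of DMSO 15 d for KU60019 15 d (5658 with all), the third of DMSO 35 d for KU60019 35 d (3381) and for DMSO 35 d over DMSO 15 d, the second of KU60019 15 d for the 35 d minus 15 d effects, the second of DMSO 35 d for DMSO 15 d then removed, and the third of KU60019 35 d then removed for that group over KU60019 35 d. Directions turned for 4 comparisons. Ccnd2 after removal at 15 d was -0.0101 on TPM with and without the filter and -0.0103 at a pseudocount of 0.1. Cdk6 after removal at 35 d was 0.0659 on TPM with and without the filter, 0.10 at a pseudocount of 0.1, 0.53 without the rRNA-rich libraries and 0.21 to -0.98 with 1 library left out, the positive value without the first library of DMSO 35 d then removed. In the 35 d removal difference Ccnd2 was 0.21 and Cdk4 0.10 on TPM at each setting, and Cdk6 0.0779 on TPM with and without the filter, 0.12 at a pseudocount of 0.1 and 0.17 without the rRNA-rich libraries. In DMSO 35 d then removed over DMSO 35 d Cdk6 was -0.32, -0.41 and -0.32 on TPM, -0.48 without the rRNA-rich libraries and -0.17 without the first library of the removed group and 1.03 at most with 1 library left out. The cause was not tested. With the replicate block the adjusted p of Cdk2 after removal at 35 d was 0.0672, and no other call of the 10 genes changed with it. Cdc25a gained a call for the 35 d minus 15 d effects without the second library of KU60019 35 d (adjusted p = 0.0393), and Ccnd3 for KU60019 35 d then removed over KU60019 35 d without the second library of the removed group (0.0475).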
